A study of Mus musculus with 90 samples.

Results

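The metallothioneins Mt1 and Mt2 were followed through 5 RNA sequencing experiments on mouse liver, and the binding sites and open chromatin around the 2 genes were read from the peak lists of the same study. Both were taken by name: of the 24312 gene symbols in the expression table, Mt1 and Mt2 are 2, each measured by 1 RefSeq transcript, NM_013602 for Mt1 and NM_008630 for Mt2. Metallothioneins are small, cysteine-rich proteins that bind zinc and copper, and liver is a major site of their synthesis. Their genes are known to respond to metals through the zinc-sensing factor MTF1, which binds metal response elements, and to glucocorticoids through the glucocorticoid receptor (GR). GR is a nuclear receptor that is released to bind DNA by corticosterone or by synthetic ligands such as dexamethasone (dex), while the transcription factor FOXO1 is kept out of the nucleus by insulin signalling.

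The study asked how a meal changes liver gene expression in night-restricted feeding (NRF), a routine in which mice get food only in the dark and learn to eat at lights off, zeitgeber time (ZT) 12. There were 54 RNA libraries in 16 groups, each library from the liver of a single mouse, so that the spread between libraries includes that between mice. Transcript levels were deposited as RPKM, read counts scaled to transcript length and library size. Positions of GR, FOXO1 and DNase I hypersensitive sites (DHSs, stretches of open chromatin) came from other livers, pooled in the case of the DHSs.

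The labels give the strain as C57BL/6 throughout; the substrains below are those of the study's methods. In the uninjected experiment, wild-type C57BL/6N males of 10 weeks had livers taken at ZT10, at ZT14 without food (ZT14-unfed) or at ZT14 after 2 h of food (ZT14-fed), with 2 mice a group and ribosome-depleted total RNA. All other experiments used poly(A)-selected RNA at ZT14. In the injected experiment, wild-type C57BL/6N mice of 10 weeks received vehicle, dex at 1 mg/kg, the insulin receptor antagonist S961 or both before the meal, and a further vehicle group stayed unfed, with 4 mice a group; the labels give S961 as 44 nM per mouse and the study's methods give the same number in nmol per kg. In the GR experiment, adult Nr3c1 fl/fl mice on a C57BL/6N background were given AAV-CRE or AAV-GFP, both driven by the liver promoter Tbg, and were left unfed, with 4 mice a group. In the insulin receptor substrate experiment, Irs1 fl/fl, Irs2 fl/fl mice of 10 weeks on a C57BL/6J background, with Alb-Cre (L-IRSdKO) or without it were compared; all 8 mice were fed and all had received dex at 1 mg/kg, so that it holds no vehicle group. In the diet experiment, wild-type males labelled C57BL/6, with no substrain given, ate high-fat diet (diet-induced obese, DIO) or chow (lean) for 10 weeks from 5 weeks of age, then entered NRF and were unfed or fed at ZT14, with 3 mice a group. Recombination in both knockouts was directed to hepatocytes by the promoters used, and the alleles of the other liver cells were not measured.

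The targeted transcripts were read first. Nr3c1 was 12.8, 14.5, 13.2 and 16.2 RPKM in the AAV-GFP livers and 3.93, 4.23, 4.14 and 5.35 RPKM in the AAV-CRE livers. Irs1 was 2.21, 4.70, 4.73 and 4.50 RPKM in the floxed controls and 0.149, 0.155, 0.321 and 0.170 RPKM in L-IRSdKO. Irs2 was 0.614, 1.63, 5.61 and 0.929 RPKM in the floxed controls and 0.272, 1.00, 0.932 and 0.886 RPKM in L-IRSdKO. Nr3c1 and Irs1 separated the groups without overlap, and the Irs2 ranges overlapped. Nr3c1 fell by 1.58 on the log2 scale (limma, Benjamini-Hochberg adjusted p = 6.83e-05) and Irs1 fell by 2.66 (adjusted p = 0.000916), while the Irs2 difference of -0.79 did not pass (adjusted p = 0.308).

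Each experiment read as liver in its mean levels, among which albumin (Alb) was the highest transcript. Its mean was 24692 to 45686 RPKM in 4 experiments but 807 RPKM in the L-IRSdKO experiment, where the highest transcript stood only 1.65-fold above the tenth, against 6.24-fold to 11.4-fold elsewhere. Values over all livers are therefore also given without that experiment. Library depth is not in the table. Estimated from the steps between low RPKM values, it was 26.1 to 38.2 M (mega) reads in the uninjected, 6.46 to 13.5 M in the injected, 16.7 to 30.5 M in the GR, 3.64 to 4.48 M in the L-IRSdKO and 16.9 to 62.3 M in the diet experiment. From the steps alone, the GR estimates could be off by a factor of 2. The study's own sequencing summary lists read totals near these estimates for the AAV-CRE libraries. For each L-IRSdKO experiment library it lists more reads, by about a factor of 2, so that those estimates are too low. At these depths the lowest estimate was 107 reads for Mt1, in AAV-CRE replicate 3, and 38.2 for Mt2, in AAV-CRE replicate 4.

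Mt1 and Mt2 lie next to each other on the plus strand of chromosome 8 (NCBIM37, mm9). Mt2 spans chr8:96696518-96697467 and has 3 exons. Mt1 starts 6471 bases downstream, spans chr8:96702989-96704225 and also has 3 exons, with a second annotated transcript of 2 exons that starts within the gene at chr8:96703111. The other family members, Mt4 and Mt3, lie upstream, starting 35414 and 20011 bases before Mt2. They were close to absent from these livers: Mt3 was listed at 0 in 51 of 54 libraries and reached 0.417 RPKM, and Mt4 was at 0 in 52 of 54 and reached 0.278 RPKM. No run of 50 bases was shared between the transcripts of Mt1 or Mt2 and any other protein-coding gene (0 of 752 and 0 of 507 runs). Pseudogenes and other copies in the genome were not searched, so that sharing of reads with those was not tested.

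Within 50 kb of the Mt1 start there were 5 GR peaks, 3 FOXO1 peaks and 12 DHSs. The GR peaks were centred 13.753 kb upstream of the Mt1 start, 7.54 kb upstream, which is 1.069 kb upstream of the Mt2 start, 0.084 kb upstream, and 3.472 and 15.784 kb downstream. All 5 centres were intergenic, and the peak at the Mt1 promoter reached over the first bases of the gene. The 3 upstream GR peaks each overlapped a FOXO1 peak, and at the Mt1 promoter the 2 lists gave the same 180 bases; 4 of the 5 overlapped a DHS, the exception being the peak 3.472 kb downstream. In the map of peak centres, binding sites flank both genes, the furthest upstream GR and FOXO1 peaks lie between Mt3 and Mt2, and none is centred in Mt3 or Mt4.

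**Figure D1:**
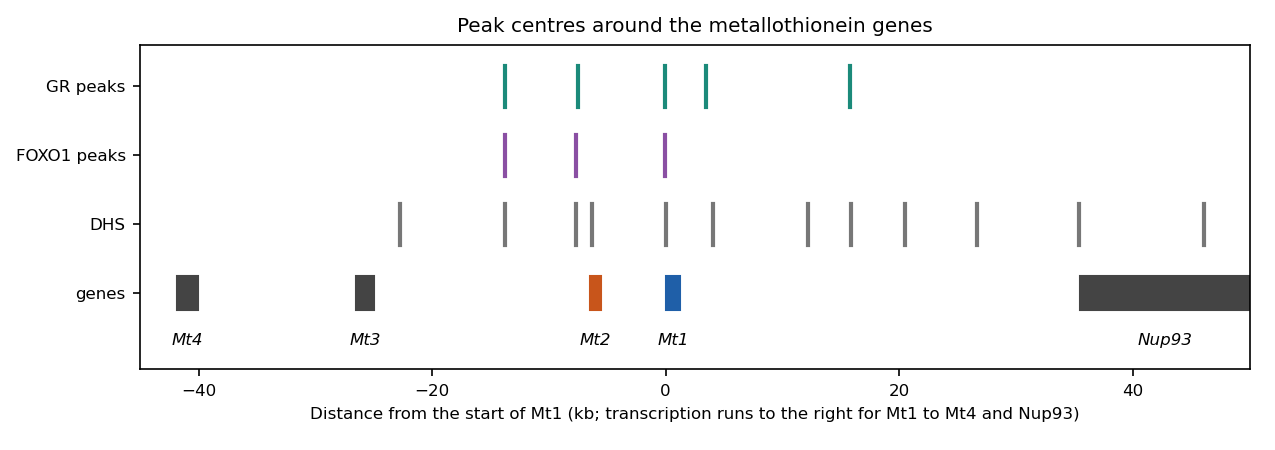
Centres of GR peaks, FOXO1 peaks and DHSs (vertical bars) and gene bodies (boxes) by distance from the Mt1 start in kb. The 5 GR peaks lie between 13.753 kb upstream and 15.784 kb downstream, 3 of them together with FOXO1 peaks, and a GR and FOXO1 peak sits 0.084 kb before Mt1.

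Over 19783 placed genes, 33.8% had any GR peak within 50 kb and 2.82% had 5 or more, with a median of 0. For Mt1 the same 5 peaks were matched by 0.490% of genes within 20 kb and 8.26% within 100 kb. At least 3 FOXO1 peaks were found at 7.33% of genes, and at least 12 DHSs at 10.2%, against a median of 6. The pairing of the factors was common genome-wide, since 5098 of 10446 GR peaks (48.8%) overlapped a FOXO1 peak and these were 59.7% of the FOXO1 peaks. The lists hold positions without heights. By the study's description, the GR and FOXO1 lists are peaks shared by replicates of ZT14-unfed livers, and the DHS list joins fed and unfed livers, so that binding at Mt1 and Mt2 was not compared between feeding states here.

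The sequences of the GR peaks nearest to the 2 starts and of the region before Mt2 are shown because they hold the GRE matches nearest to the genes and the matches before Mt2. Capitals mark matches, on either strand, to the GR element (GRE, searched as GNACA and TGTNC with any 3 bases between them), the metal response element TGCGCNC (MRE) or its variant TGCACNC, and the antioxidant response element TGACNNNGC (ARE); no match overlapped another. The Mt2 upstream peak is chr8:96695360-96695539, the Mt1 promoter peak is shown up to the base before the gene, chr8:96702816-96702988, and the Mt2 promoter is chr8:96696338-96696517, all on the plus strand of mm9.
Mt2 upstream peak: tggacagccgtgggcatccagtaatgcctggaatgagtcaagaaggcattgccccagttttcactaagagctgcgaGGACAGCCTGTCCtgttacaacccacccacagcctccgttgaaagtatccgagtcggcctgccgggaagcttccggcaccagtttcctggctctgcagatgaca
Mt1 promoter peak: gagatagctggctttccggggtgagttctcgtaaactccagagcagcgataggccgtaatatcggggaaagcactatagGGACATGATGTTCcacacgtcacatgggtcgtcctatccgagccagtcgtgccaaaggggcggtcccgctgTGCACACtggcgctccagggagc
Mt2 promoter: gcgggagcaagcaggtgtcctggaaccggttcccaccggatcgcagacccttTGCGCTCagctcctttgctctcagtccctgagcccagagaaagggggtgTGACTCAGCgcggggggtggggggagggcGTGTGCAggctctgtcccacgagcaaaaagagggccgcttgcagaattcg

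The GRE of the Mt2 upstream peak began at -1082 from the Mt2 start and that of the Mt1 promoter peak at -94 from the Mt1 start. A GRE was found in 7.80% of GR peaks, 3.25% of FOXO1 peaks, 0.561% of DHSs and 0.381% of the 27025 RefSeq promoters of 250 bases (GRCm38.p6), where both genes start at the same base as in the mm9 annotation. The 250 bases before Mt2 held no GRE and had an MRE at -128, an ARE at -79 and the MRE variant at -223 and -50. The 250 bases before the first annotated Mt1 start had the MRE variant at -23 and neither an MRE nor an ARE. Matches also lay past the annotated starts. In the DHS at the Mt1 start the MRE variant began 2 bases, an MRE 20 bases and an ARE 52 bases after the first base of Mt1. All of these precede the second annotated Mt1 start, chr8:96703111, so that whether they lie before the gene or within it depends on the start used. In the DHS of Mt2 the MRE variant began 58 and 77 and an MRE 111 bases after the first base of Mt2. An MRE was present in 12.6% of RefSeq promoters, its variant in 10.2% and an ARE in 10.1%. The FOXO motif TGTTTAC, found in 18.8% of FOXO1 peaks, was in neither promoter and in none of the GR peaks here, which says only that these letters are not in these windows.

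Across all 54 livers Mt1 ran from 9.32 to 1889 RPKM, a 203-fold range with a median of 250.8, and Mt2 from 3.73 to 1419.6 RPKM, a 380.4-fold range with a median of 175. Without the L-IRSdKO experiment the ranges were the same over 46 livers and the medians were 220.3 and 157 RPKM. The 4 AAV-CRE livers gave the lowest group mean of both genes, 21.9 ± 14.8 RPKM for Mt1 and 4.65 ± 1.33 for Mt2 (mean ± SD, n = 4). For Mt1 the highest means were 1484 ± 533 RPKM in fed dex mice and 1476 ± 187 in fed dex plus S961 mice (n = 4 each). For Mt2 the highest were 1186 ± 196 RPKM in fed dex plus S961 mice and 1047 ± 366 in fed dex mice (n = 4 each). Levels between experiments differ in RNA selection, cohort and depth, which cannot be told apart, and each pair of neighbouring groups in the order of means overlapped, for both genes, with or without the L-IRSdKO experiment. The plot of single livers shows this as a broad rise from the GR and uninjected experiments to the injected one, in which the unfed vehicle mice already stood at 751 ± 204 RPKM for Mt1 and 549.8 ± 181 for Mt2.

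**Figure D2:**
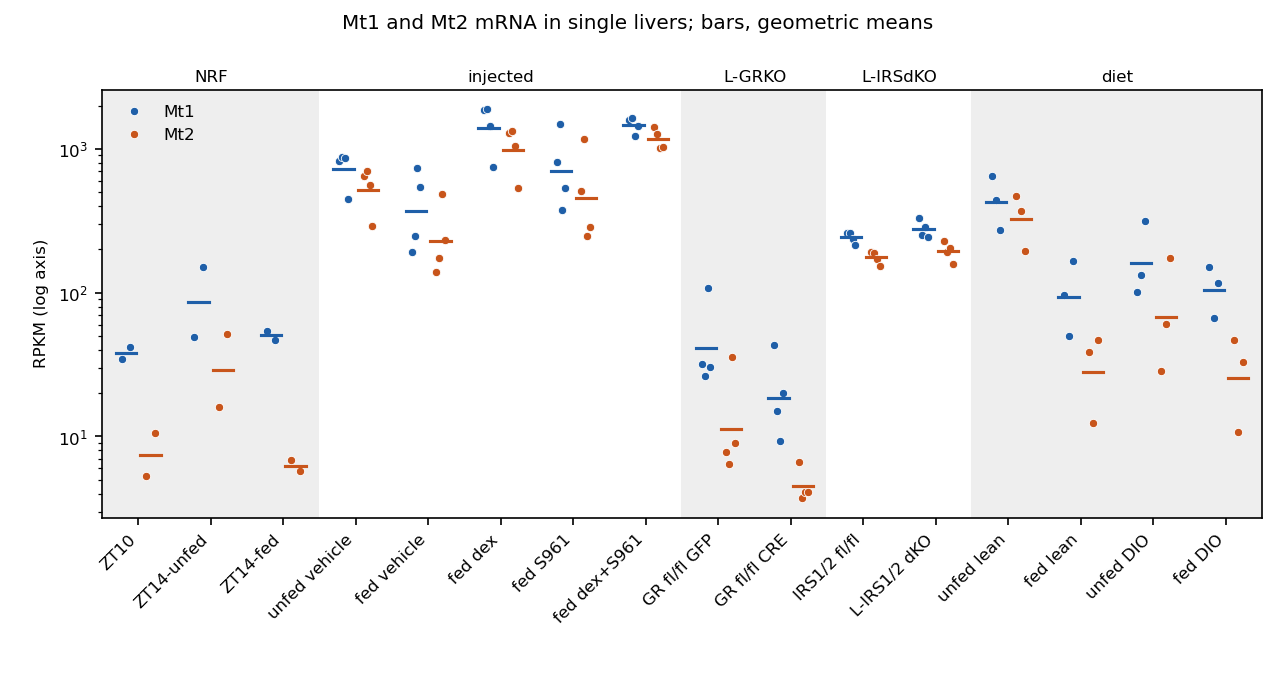
Mt1 and Mt2 RPKM (log axis) in each of the 54 livers by group, one point per mouse, with bars at geometric means and shading by experiment. Geometric means are highest in the groups given dex in the injected experiment, with single livers up to 1889 RPKM for Mt1. They are lowest in the AAV-CRE group, with single livers down to 3.73 RPKM for Mt2, and single livers of different groups overlap.

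Both metallothioneins were higher in fed mice that had received dex. In fed vehicle mice Mt1 was 191, 249, 735 and 539 RPKM, and in fed dex mice it was 1855, 1889, 1451 and 743 RPKM. Mt2 was 139, 175, 488 and 232 RPKM in fed vehicle mice and 1292, 1322, 1042 and 532 RPKM in fed dex mice. The groups did not overlap for either gene, although the lowest dex liver and the highest vehicle liver were close; 10.5% of the 11251 genes tested had groups that did not overlap. Mt1 was 3.76-fold higher (log2 FC 1.91, SE 0.43; limma on log2(RPKM + 0.5), Benjamini-Hochberg adjusted p = 0.0171) and Mt2 4.30-fold higher (log2 FC 2.10, SE 0.44; adjusted p = 0.0119). Against a background of 1.00% of genes called higher, the 2 stood at positions 18 and 11 from the top by log2 FC. With only the 8 compared mice in the fit, neither passed 0.05 (adjusted p = 0.0875 for Mt1 and 0.0527 for Mt2), and leaving out replicate 1 or 2 of the dex group (both genes) or of the vehicle group (Mt1) moved the adjusted p past 0.05, at most to 0.0681. Replicate 4 of each injected group came from a second numbered series of libraries and included the lowest dex liver; in the first series alone log2 FC was 2.39 for Mt1 (adjusted p = 0.00706) and 2.40 for Mt2 (adjusted p = 0.00792). Markers of Kupffer cells, the resident macrophages of liver, summed to 63.7 to 98.8 RPKM in fed vehicle and 41.0 to 64.9 RPKM in fed dex livers, and 1 of 5 was called lower, as was 1 of 4 endothelial markers, against 2.19% of all genes; 5 and 4 of them were at an unadjusted p under 0.05. Hepatocyte markers, of which 0 of 6 were called by limma (1 at an unadjusted p under 0.05), summed to 42674 to 58202 and 41550 to 73173 RPKM; the part of other cells in the metallothionein values was not tested. In whole liver, fewer cells of a type and less RNA per cell cannot be told apart.

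Both metallothioneins were also higher with dex and S961 together. Mt1 was 1591, 1644, 1226 and 1443 RPKM in fed dex plus S961 mice. Mt2 was 1419.6, 1277, 1016 and 1032 RPKM. All 4 livers were above all 4 fed vehicle livers for both genes, as were 17.1% of genes in one direction or the other. Mt1 was 3.95-fold higher than in fed vehicle mice (log2 FC 1.98, SE 0.43, adjusted p = 0.00597) and Mt2 5.11-fold higher (log2 FC 2.35, SE 0.44, adjusted p = 0.00236), where 2.70% of genes were called higher. Kupffer cell markers summed to 51.6 to 60.9 RPKM in these livers, and 3 of 5 were called lower against fed vehicle, where 7.90% of all genes were; their part in the metallothionein values was not tested. Both calls held when any 1 library was left out. Since the comparisons with dex, S961 and both share the same fed vehicle livers, they are not independent of each other.

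S961 alone left the metallothioneins between these groups, with wide scatter. Mt1 was 813, 1483, 374 and 533 RPKM and Mt2 was 509, 1166, 246 and 288 RPKM, and both ranges overlapped those of the fed vehicle mice. The log2 FC was 0.92 for Mt1 (adjusted p = 0.338) and 0.98 for Mt2 (adjusted p = 0.320), with 0.942% of genes called higher. The 95% intervals, from 0.02 to 1.81 for Mt1 and from 0.05 to 1.91 for Mt2, reach from little change to just under the dex estimates. Without S961 replicate 2, the highest liver, log2 FC was 0.56 for Mt1 and 0.53 for Mt2. Kupffer cell markers summed to 42.7 to 66.2 RPKM under S961, with 2 of 5 called lower (0.960% of all genes were) and 5 of 5 at an unadjusted p under 0.05; their part was not tested. Added to dex, S961 gave 0.07 for Mt1 (adjusted p = 0.961) and 0.25 for Mt2 (adjusted p = 0.864), with intervals of -0.82 to 0.97 and -0.68 to 1.18, where 2.96% of genes were called. Added to S961, dex gave 1.07 for Mt1 (adjusted p = 0.286) and 1.37 for Mt2 (adjusted p = 0.139), where 1.91% were called. The dex by S961 interaction was -0.84 for Mt1 and -0.73 for Mt2 (both adjusted p = 1.00); limma called 0 of 11251 genes for it, with 513 at an unadjusted p under 0.05, and the unadjusted p was 0.178 for Mt1 and 0.259 for Mt2.

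The fed dex plus S961 livers were also set against unfed vehicle mice. Mt1 was 819, 880.2, 858 and 447 RPKM and Mt2 was 644, 699, 565 and 291 RPKM in unfed vehicle mice. No unfed liver reached the lowest fed dex plus S961 liver in either gene, a separation seen for 10.6% of genes. The log2 FC of 1.02 for Mt1 (adjusted p = 0.323) and 1.17 for Mt2 (adjusted p = 0.247) did not pass, where 2.32% of genes did, but did with only these 8 mice in the fit (adjusted p = 0.0350 and 0.0436).

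The difference between fed and unfed livers was below 0 for both genes in all 4 meal comparisons, and passed the test once, for Mt2 in lean mice. In uninjected mice, ZT14-unfed livers had 48.9 and 151 RPKM of Mt1 and 15.97 and 52.0 RPKM of Mt2. The ZT14-fed livers had 54.4 and 46.8 RPKM of Mt1 and 6.82 and 5.75 RPKM of Mt2. Both fed livers were below both unfed livers for Mt2 and not for Mt1, in a comparison in which 59.7% of 10907 genes did not overlap. The log2 FC was -0.76 for Mt1 (adjusted p = 0.305) and -2.12 for Mt2 (adjusted p = 0.0537), against a threshold of 0.01 passed by 0.990% of genes. The 2 ZT14-unfed livers differed by over 3-fold in each gene, and the values turned on which was kept. Without the first, log2 FC was -1.57 for Mt1 and -2.96 for Mt2, and without the second, Mt1 was at 0.04 and Mt2 at -1.28. Each of these fits rests on 1 ZT14-unfed liver, so that no p is given for them.

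From ZT10 to ZT14 without food the metallothioneins pointed the other way. At ZT10 Mt1 was 34.5 and 41.9 RPKM and Mt2 was 5.32 and 10.5 RPKM. Both ZT14-unfed livers were above both ZT10 livers, as 56.2% of genes were separated in one direction. The log2 FC was 1.17 for Mt1 (adjusted p = 0.147) and 1.88 for Mt2 (adjusted p = 0.0645), with 1.16% of genes called. Without the first ZT14-unfed liver the values were 1.98 and 2.71, and without the second 0.36 and 1.04, each resting on 1 ZT14-unfed liver. From ZT10 to ZT14-fed the differences were 0.40 for Mt1 and -0.24 for Mt2 (adjusted p = 0.592 and 0.793), where 1.71% of genes were called. An exact permutation test of 2 against 2 mice cannot fall below a p of 0.33, so none was run here.

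Between vehicle-injected mice the meal gave -0.97 for Mt1 (SE 0.43, adjusted p = 0.221) and -1.18 for Mt2 (SE 0.44, adjusted p = 0.149). The fed vehicle range, which ran from 191 to 735 RPKM for Mt1, reached into that of the unfed vehicle mice at unfed replicate 4. In this comparison 3.13% of genes were called. In the first library series alone the values were -1.38 and -1.47 (adjusted p = 0.0847 and 0.0775). Of the Kupffer cell markers, 3 of 5 were called higher in fed vehicle mice, as were 2.55% of all genes, and their sum was 43.9 to 59.7 RPKM in unfed vehicle mice; their part in the metallothionein differences was not tested.

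In lean mice of the diet experiment the meal differences were further from 0 than in the other 3 meal comparisons. Unfed lean livers had 649, 444 and 271 RPKM of Mt1, and fed lean livers had 96.9, 50.1 and 166 RPKM. Mt2 was 473, 373 and 194 RPKM unfed and 38.7, 12.3 and 46.7 RPKM fed. The groups were apart for both genes, as they were for 43.3% of the 11434 genes tested. Mt2 was lower in fed livers by 3.50 on the log2 scale (SE 0.72, adjusted p = 0.00651), or 11.3-fold, one of 3.23% of genes called lower and at position 5 from the bottom by log2 FC. Mt1 was at -2.19 (SE 0.52), 4.57-fold, and missed the threshold of 0.01 (adjusted p = 0.0123). The Mt2 call did not hold when any single lean liver was left out (adjusted p 0.0123 to 0.0289) or without the filter on low genes (adjusted p = 0.0164). Of the endothelial markers, 1 of 4 was called lower in fed lean livers, and 3 of 4 were at an unadjusted p under 0.05. They summed to 48.2 to 58.2 RPKM in unfed lean and 34.9 to 41.5 RPKM in fed lean livers. Markers of stellate cells summed to 56.5 to 92.9 and 40.5 to 54.5 RPKM, with 0 of 4 called by limma and 2 at an unadjusted p under 0.05. For Kupffer cells 0 of 5 and for hepatocytes 0 of 6 were under it. The part of other cells in the metallothionein values was not tested.

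In DIO mice the same contrast was not called for either gene. Unfed DIO livers had 101, 133 and 314 RPKM of Mt1 and 28.6, 60.9 and 175 RPKM of Mt2. Fed DIO livers had 152, 66.2 and 116 RPKM of Mt1 and 47.1, 10.8 and 33.1 RPKM of Mt2. The ranges overlapped for both genes, with log2 FC of -0.61 for Mt1 (adjusted p = 0.503) and -1.37 for Mt2 (adjusted p = 0.265), where 1.22% of genes were called. Without unfed replicate 3, the highest of that group, log2 FC was -0.14 and -0.69, and without fed replicate 2, the lowest of its group, it was -0.28 and -0.77. The difference between the 2 meal effects was itself tested as a diet by meal interaction, of 1.58 for Mt1 (SE 0.74, adjusted p = 0.348) and 2.13 for Mt2 (SE 1.02, adjusted p = 0.359), and did not pass; 0.131% of genes did.

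Before the meal, mean metallothionein levels were lower in DIO than in lean livers, and the differences did not pass the test. All 3 unfed DIO livers were below all 3 unfed lean livers for Mt2, as 22.9% of genes were separated, and for Mt1 the highest DIO liver stood above the lowest lean one. The log2 FC was -2.26 for Mt2 (SE 0.72, adjusted p = 0.0958) and -1.40 for Mt1 (SE 0.52, adjusted p = 0.142), with 0.770% of genes called. After the meal the diets differed by 0.18 for Mt1 and -0.13 for Mt2 (adjusted p = 0.883 and 0.936; limma called 0 of 11434 genes, with 2284 at an unadjusted p under 0.05), with intervals of -0.97 to 1.32 and -1.72 to 1.46. The lean and DIO meal comparisons and the 2 diet comparisons share livers. The endothelial markers, 1 of 4 of which was called lower, summed to 27.3 to 33.9 RPKM in unfed DIO and 48.2 to 58.2 in unfed lean livers; their part in the metallothionein values was not tested.

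Loss of GR from unfed livers went with lower mean levels of both metallothioneins, with overlapping ranges, and neither difference passed the adjusted threshold. In AAV-GFP livers Mt1 was 32.2, 26.3, 108 and 30.7 RPKM, and in AAV-CRE livers it was 43.1, 14.9, 9.32 and 20.2 RPKM. Mt2 was 7.83, 6.41, 35.5 and 9.03 RPKM in AAV-GFP and 6.63, 3.73, 4.14 and 4.11 RPKM in AAV-CRE livers. For Mt1 1 AAV-CRE liver exceeded 3 of the 4 controls, and for Mt2 only the ends of the ranges overlapped. The log2 FC was -1.11 for Mt1 (SE 0.49, adjusted p = 0.235) and -1.23 for Mt2 (SE 0.43, adjusted p = 0.129), while 6.68% of 11649 genes were called. The unadjusted limma p was 0.0455 for Mt1 and 0.0160 for Mt2, in a comparison with 2345 genes under 0.05. Replicate 3 of the controls was the highest liver of both genes. Without it log2 FC was -0.65 for Mt1 (SE 0.39, limma adjusted p = 0.413) and -0.70 for Mt2 (SE 0.19, limma adjusted p = 0.0633). The Mt2 estimate was thus smaller with a smaller SE, and neither gene passed. Among the markers, 1 of 6 of hepatocytes was called lower and 1 of 4 of stellate cells higher. These controls had far less of either transcript than unfed vehicle livers of the injected experiment.

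In dex-treated, fed livers labelled L-IRSdKO, in which Irs1 was lower and the Irs2 difference did not pass, metallothionein levels overlapped those of the floxed controls. Mt1 was 261, 262, 237 and 214 RPKM in floxed controls and 331, 252, 287 and 245 RPKM in L-IRSdKO. Mt2 was 193, 189, 172 and 154 RPKM in controls and 229, 191, 205 and 157 RPKM in L-IRSdKO. The ranges overlapped, with differences of 0.19 for Mt1 (SE 0.11, adjusted p = 0.248) and 0.14 for Mt2 (SE 0.12, adjusted p = 0.466), in a comparison where 17.4% of 12966 genes were called. The 95% intervals ran from -0.05 to 0.43 and from -0.13 to 0.40, on the narrowed scale of this experiment. Of the markers, 2 of 5 of Kupffer cells, 3 of 4 endothelial and 1 of 3 stellate were called higher in L-IRSdKO, against 9.06% of all genes, and 1 of 6 of hepatocytes, 1 of 3 of cholangiocytes and the 1 of pancreas tested were called lower, against 8.31%. Kupffer cell markers summed to 142 to 252 RPKM in controls and 247 to 292 RPKM in L-IRSdKO; their part in the metallothionein values was not tested.

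**Figure D3:**
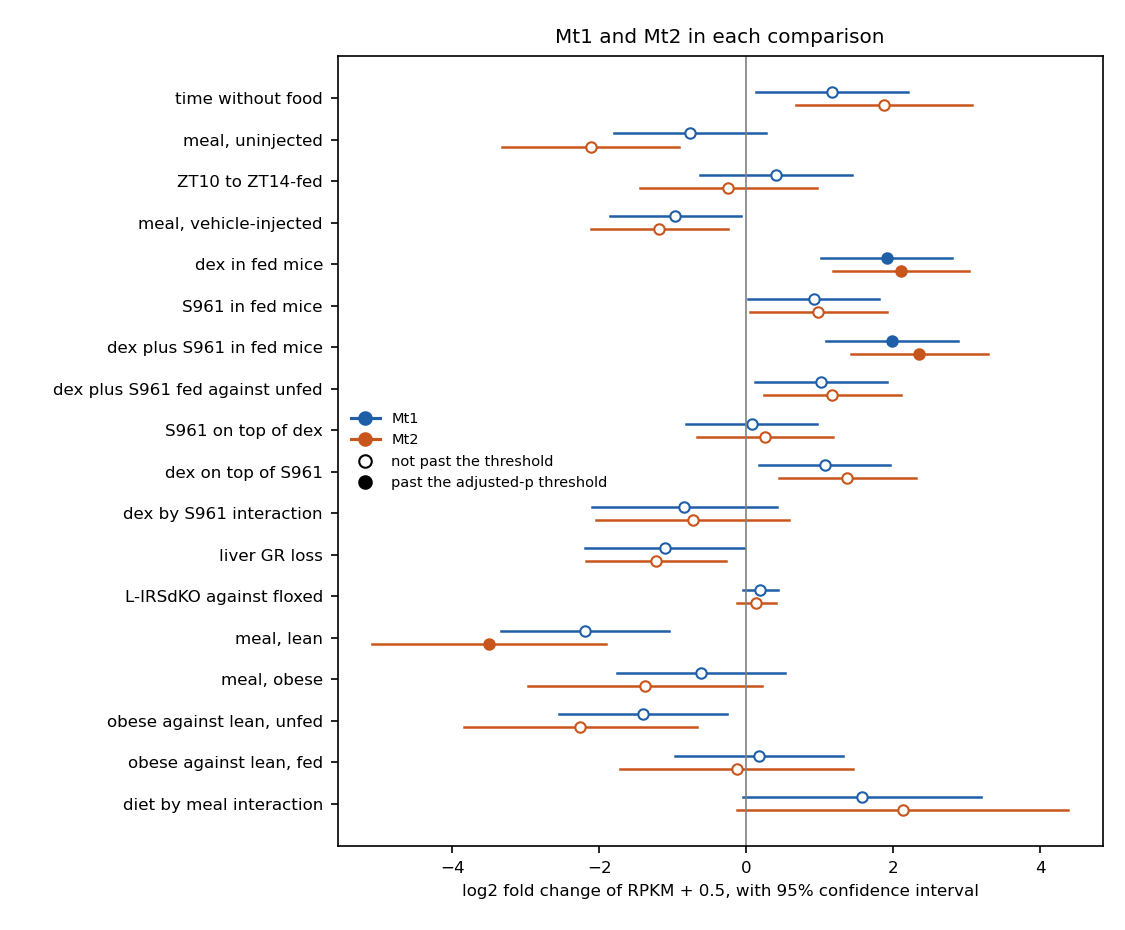
Log2 fold change of Mt1 and Mt2 in the 18 comparisons (log2 of RPKM + 0.5), points with 95% confidence intervals and filled where the adjusted p passed the threshold. Both genes are filled for dex and for dex plus S961 in fed mice, and Mt2 also for the meal in lean mice, at -3.50.

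Mt1 exceeded Mt2 in 54 of 54 livers, but by an amount that varied with their level. RPKM corrects for annotated transcript length only, and what else may shift the ratio of the 2 genes was not tested. In the 31 livers with at least 200 RPKM of Mt1 the ratio of Mt1 to Mt2 was 1.12 to 2.33, with a median of 1.40, and in the 23 livers below it was 1.37 to 8.15, with a median of 3.56. Without the L-IRSdKO experiment, 23 livers remained on the higher side, with the same range and median. By group, the geometric mean ratio was 8.07 in ZT14-fed, 5.08 in ZT10, 4.12 in AAV-CRE and 4.11 in fed DIO livers, and 1.41 in fed dex, 1.32 in unfed lean and 1.25 in fed dex plus S961 livers. The ZT14-fed and ZT10 livers are from the uninjected experiment, the only one with ribosome-depleted RNA. This is a description across livers, in which the ratio and the level share Mt1 and the low livers come mainly from 3 experiments. Within an experiment, the ratio was tested by an exact two-sided permutation test over mice in 13 comparisons. The ratio was 1.32 in unfed lean, 3.31 in fed lean and 2.40 in unfed DIO livers; in the latter 2 groups each of the 3 livers was above each unfed lean liver, and the exact p of 0.10 is the smallest that 3 against 3 mice allow (Benjamini-Hochberg adjusted p = 0.26 for both). Fed dex plus S961 against fed vehicle, 1.25 against 1.62, had an exact permutation p of 0.0571 (adjusted p = 0.26, n = 4 each). None of the 13 passed 0.05 after adjustment.

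**Figure D4:**
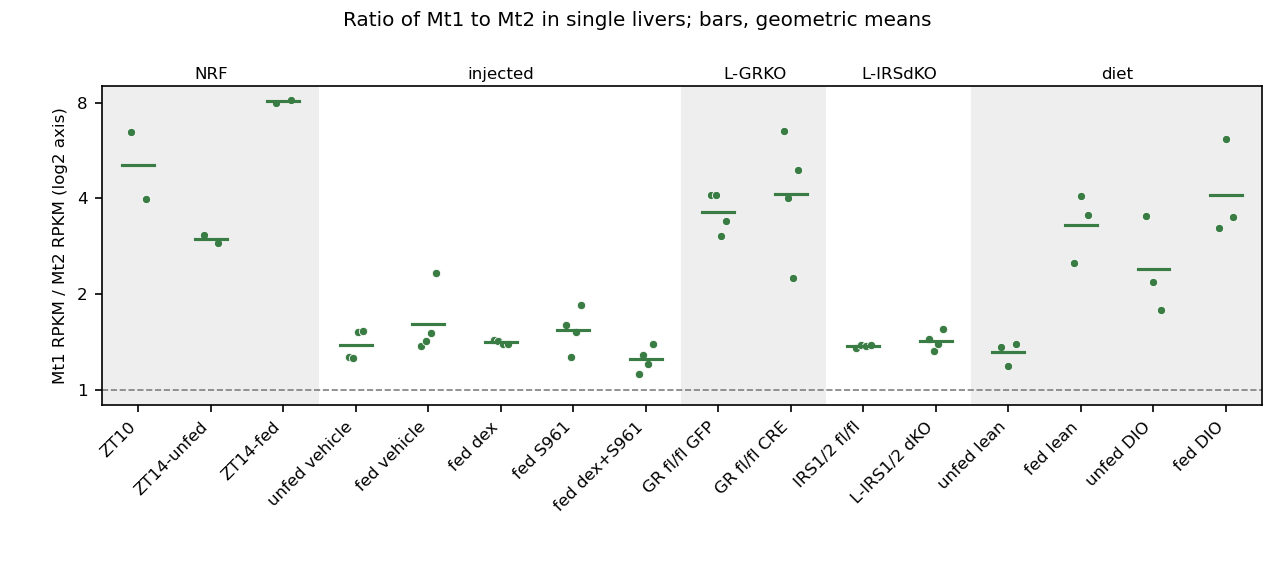
Ratio of Mt1 to Mt2 RPKM (log2 axis) in each liver by group, with bars at geometric means and a dashed line at equal levels. All 54 points are above 1, with the ratio near 8 in ZT14-fed livers and between 1.12 and 2.33 in the injected experiment.

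The 2 genes were each other's nearest match among 10521 genes. With each library centred on the mean of its experiment, Pearson's r of log2(RPKM + 0.5) between Mt1 and Mt2 was 0.94 over 54 libraries, and 0.89 to 0.98 within the 5 experiments. After Mt2, the genes most like Mt1 were Got1 (0.73), the cytosolic aspartate aminotransferase, Susd6 (0.72), Wbp1l (0.70) and Fam107a (0.69). After Mt1, those most like Mt2 were Susd6 (0.78), Slc25a51 (0.75), a mitochondrial carrier of NAD, Got1 (0.74) and Retreg1 (0.73). These values describe libraries that share treatments and controls, and in the L-IRSdKO experiment the r of Fam107a with Mt1 was -0.27.

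The known glucocorticoid-induced genes gave a reference for the metallothioneins in the comparisons below. Under dex 5 of 10 were called higher (1.00% of all genes were) and 0 lower, with a median log2 FC of 0.72 against -0.10 for all genes; they included the kinase Sgk1 (1.92, adjusted p = 0.000761), the cell cycle inhibitor Cdkn1a (1.86, adjusted p = 0.00467) and the phosphatase Dusp1 (1.67, adjusted p = 0.000775), beside 1.91 and 2.10 for Mt1 and Mt2. Under dex plus S961 7 of 10 were called higher (2.70% of all genes were), with a median of 0.62 against -0.14. With dex on top of S961 7 of 10 were called higher, where neither metallothionein was called (1.91% of all genes were called in either direction). With GR loss 7 of 10 were called lower (2.22% of all genes), at a median of -1.40 against 0.08, among them Zbtb16 (-3.46, adjusted p = 6.58e-06) and Fkbp5 (-2.64, adjusted p = 3.83e-05), where neither metallothionein was called. In the meal comparison of lean mice 5 of 10 were called lower (3.23% of all genes were), at a median of -1.14 against 0.08, with Zbtb16 at -2.47 (adjusted p = 0.00449) and Tat, the liver enzyme tyrosine aminotransferase and the most abundant of the list, at -1.997 (adjusted p = 0.000144). The meal lowered 4 of 9 in uninjected mice and 2 of 10 in vehicle-injected mice, where 0.990% and 3.13% of all genes were called in either direction. In DIO mice limma called 0 of 10 (3 at an unadjusted p under 0.05), where 1.22% of all genes were called. For the diet by meal interaction limma called 1 of 10 higher and 0 lower, where 0.131% of all genes were called. At an unadjusted p under 0.05 were 10 of 10 of the list, 0 of the 2 metallothioneins and 1713 of 11434 genes. In unfed DIO against unfed lean livers 4 of 10 were called lower (0.350% of all genes), at a median of -1.32 against 0.07, with Tat at -2.10 (adjusted p = 0.000466). Tat was 2345 ± 102 RPKM in unfed lean and 557 ± 138 in unfed DIO livers (mean ± SD, n = 3 each).

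Zinc transporters set the pool of the metal that metallothioneins hold, and few of them were called. Of 7 zinc exporters tested (the ZnT family, which move zinc out of the cytosol), 2 were called lower under dex, as were 2.19% of all genes: Slc30a10, which exports mainly manganese, fell from 4.72 ± 0.77 to 2.37 ± 0.27 RPKM (log2 FC -0.85, adjusted p = 0.00580), and Slc30a1, the plasma membrane zinc exporter, from 11.04 ± 1.35 to 6.33 ± 0.75 RPKM (log2 FC -0.76, adjusted p = 0.00997; mean ± SD, n = 4 each). The list's median was -0.27. Under dex plus S961 0 of 7 were called by limma (3 at an unadjusted p under 0.05), and in L-IRSdKO 1 of 8 was, Slc30a3 (log2 FC 1.98, adjusted p = 0.00640). In the meal comparisons Slc30a10 was called higher in lean mice, where 10.2% of all genes were called in either direction (log2 FC 1.60, adjusted p = 0.000547) and in DIO mice (1.51, adjusted p = 0.00408), and Slc30a6 in lean mice (0.36, adjusted p = 0.00920). The most abundant exporter, Slc30a9, with a mean of 21.6 RPKM over all livers, was not called in these. Of 11 zinc importers tested in the injected experiment (the ZIP family, which bring zinc into the cytosol), 0 were called under dex by limma (2 at an unadjusted p under 0.05) and 1 under dex plus S961: Slc39a14, the most abundant, was 76.3 ± 13.5 RPKM in fed vehicle, 90.8 ± 16.9 in fed dex and 121 ± 3.72 in fed dex plus S961 livers (log2 FC 0.68 against vehicle, adjusted p = 0.0165).

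Of 12 copper handling genes, 0 were called under dex by limma (4 at an unadjusted p under 0.05) and 1 was called lower under dex plus S961 (7.90% of all genes were), Atp7b, the copper pump of the bile canaliculus (-0.60, adjusted p = 0.00500). Atp7b was also lower at ZT14-unfed than at ZT10 (-1.05, adjusted p = 0.00839), higher in fed than unfed lean livers (0.60, adjusted p = 0.00638) and higher in unfed DIO than unfed lean livers (0.80, adjusted p = 0.00753). Ceruloplasmin (Cp), the copper oxidase of plasma and the most abundant of the list, was 275 ± 19.7 RPKM in fed vehicle and 234 ± 24.97 in fed dex livers and was not called (adjusted p = 0.186). Mtf1, which encodes the zinc sensor, was at -0.07 under dex (adjusted p = 0.814) and was called only in L-IRSdKO, where it was lower (-0.41, adjusted p = 0.0469).

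Metallothioneins are also counted among the acute phase genes of liver. Under dex 3 of 23 acute phase and IL-6 response genes were called higher (1.00% of all genes were) and 0 lower, at a median of 0.23: Lcn2, which encodes a protein that binds bacterial siderophores, went from 24.9 ± 24.5 to 197 ± 59.1 RPKM (log2 FC 3.29, adjusted p = 0.00699), Saa3, a serum amyloid A, changed by 1.39 (adjusted p = 0.0243) and haptoglobin (Hp), which binds free haemoglobin, by 0.54 (adjusted p = 0.0375). Under dex plus S961 again 3 of 23 were called higher (2.70% of all genes), with Lcn2 at 3.00 (adjusted p = 0.00533), Orm3 at 1.40 (adjusted p = 0.0254) and the IL-6 receptor Il6ra at 0.57 (adjusted p = 0.0206). With GR loss 4 were called lower (2.22% of all genes), Il1r1, Il6ra, Lbp and Hp. In the lean meal comparison 1 was, Il6ra (-1.51). In L-IRSdKO 5 of 23 were called lower and 0 higher, where 8.31% of all genes were called lower. These were Orm3 (-1.52), Steap4 (-1.30), Apcs (-1.04), Il1r1 (-0.81) and Orm1 (-0.51). In that comparison 12 of 23 were at an unadjusted p under 0.05, and neither metallothionein was called. Fgb, a fibrinogen chain and the most abundant of the list with a mean of 1843 RPKM over all livers, was among those not called under dex. Of 9 oxidative stress genes under the factor NRF2, 0 were called under dex by limma (1 at an unadjusted p under 0.05), 1 was called lower under dex plus S961 and 3 were called higher with GR loss (4.46% of all genes were), namely Gclc and Gclm, the subunits of the enzyme that starts glutathione synthesis (0.85 and 0.48), and haem oxygenase 1, Hmox1 (0.81). Prdx1, a peroxide-reducing enzyme and the most abundant of them, was 440.2 ± 105 RPKM in fed vehicle and 391 ± 82.5 in fed dex livers.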

How the data were processed

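RNA was sequenced from single livers in 54 libraries; the authors mapped reads to mm9 with STAR and deposited RPKM values (no versions given in the sources used here), which keep no counts, so limma 3.58.1 in R 4.3.3 was fitted to log2(RPKM + 0.5) with a variance trend, per experiment and over all its groups, keeping genes whose mean RPKM reached 0.5. Fold changes are on that scale and understate those of low genes. P-values were Benjamini-Hochberg adjusted over all genes tested, at 0.01 (uninjected, diet) or 0.05 (others), the thresholds of the study. RefSeq IDs were joined to symbols (35407 of 35707 matched), keeping the ID with the highest mean.

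The deposited GR, FOXO1 and DHS lists (peaks called with HOMER per the labels and methods) hold positions with no height and were used as intervals. Peaks were counted within 50 kb of gene starts by their centres, and overlap meant at least 1 shared base. Motifs were searched on both strands of the mm9 genome. Ratio tests were exact and two-sided over mice. The fit was tested on simulated data.

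The members and lists were chosen with earlier results of these data known. Genes named were Mt1, Mt2, the knockout targets, list members past the threshold (at most 5 by absolute log2 FC) with the most abundant of each list, and the 5 nearest by Pearson's r. The alternatives tried were a pseudocount of 0.1 or 1, a filter at 2 RPKM or none, median-ratio or quantile scaling, all RefSeq IDs, no variance trend, the compared groups alone, a replicate block, a term for the library series, the first series alone, leaving out each library, and windows of 20 and 100 kb. In the injected experiment same-numbered mice of different groups tended to deviate together, with a median r of 0.14 against -0.05 for other numbers. There 27 of 40 pairs had r over 0.1, the lowest being -0.12. In no experiment did every pair do so, and the numbers were not taken as pairs in the main fit, which also held no term for the library series.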

Additional observations from a re-analysis of the deposited data

Results flagged for a closer look

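Among the 18 sets of 4 livers examined (9 groups, 2 genes), 2 held a liver far from the other 3 by Dixon's test of gap over range. For a single set chance gives about 1 in 20. The 18 sets are not independent, because both genes were read in the same livers and vary together. Replicate 4 of the unfed vehicle mice had 446.8 RPKM of Mt1, with a gap of 0.894 of the group's range; it belongs to the second numbered series of libraries. Replicate 3 of the AAV-GFP mice had 108 RPKM of Mt1, with a gap of 0.859 of the range.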

How the results depend on the processing

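The log2 FC of both genes kept its direction and its side of the threshold under 377 of 384 alternatives, not counting fits that left out 1 library at a time. Among these alternatives, the fits of the compared groups alone and of the first library series alone used only part of the libraries. With the compared groups alone, dex gave 1.91 for Mt1 (limma adjusted p = 0.0875) and 2.10 for Mt2 (0.0527), and dex plus S961 against unfed gave 1.02 (0.0350) and 1.17 (0.0436). In the first library series alone, S961 on top of dex was -0.22 for Mt1. Quantile normalization gave 0.27 for Mt1 in L-IRSdKO (0.0462), and without a filter the lean meal gave -3.50 for Mt2 (0.0164). A window of 20 kb held 7 DHSs around each of the genes, and GR peaks were 5 at Mt1 in each window. Median-ratio scaling removed shifts of the median gene of 0.12 (meal, uninjected), 0.10 (meal, vehicle) and -0.14 (dex plus S961); it changed no call of either gene. The causes were not tested.

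Leaving out 1 library at a time, 246 of 272 values kept direction and side. The ranges were, for time without food, 0.36 to 1.98 (Mt1) and 1.04 to 2.71 (Mt2); ZT10 to ZT14-fed, -0.70 to 0.22 (Mt2); the uninjected meal, -1.57 to 0.044 (Mt1) and -2.96 to -1.28 (Mt2); dex, 1.59 to 2.24 (Mt1) and 1.86 to 2.47 (Mt2); S961 on top of dex, -0.23 to 0.22 (Mt1) and -0.046 to 0.39 (Mt2); dex on top of S961, 1.08 to 1.83 (Mt2); the lean meal, -3.87 to -2.92 (Mt2); GR loss, -1.50 to -0.65 (Mt1) and -1.49 to -0.70 (Mt2); S961, 0.56 to 1.24 (Mt1) and 0.53 to 1.34 (Mt2); the DIO meal, -0.95 to -0.14 (Mt1) and -1.99 to -0.69 (Mt2); and fed DIO against lean, -0.27 to 0.59 (Mt1) and -0.71 to 0.48 (Mt2). Log2 Mt1 to Mt2 ratios ran from -0.15 to 0.11 (S961) and from -0.040 to 0.47 (GR loss). The call of dex plus S961 against fed vehicle was kept in each of these fits, with adjusted p up to 0.0261 (Mt1) and 0.0113 (Mt2).

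Counts of genes called over the whole table moved by over 1.5 times in 70 of 192 alternatives and 76 of 136 fits without a library. Across the former, 359 calls for dex became 88 to 1096, 1193 for dex plus S961 became 710 to 2204, and 1169 for the lean meal became 769 to 1946. With the replicate block, dex gave 1.91 for Mt1 (adjusted p = 0.0137) and 2.10 for Mt2 (0.00558). The block changed no call of either gene, although it moved the count of genes called by over 1.5 times in 14 of 18 comparisons; the mice share only a number. Deposited RPKM give no depth; from their steps the libraries were estimated to hold at least 107 Mt1 and 38.2 Mt2 reads.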
